A study of Mus musculus with 8 samples.

Results

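Platelet mRNA levels of 10 genes of the translation machinery were examined in TNFdARE mice and littermate controls. The genes were Eif1, Eif2s3x, Eif4a1, Eif4a2 and Eif4g2 of translation initiation, Eef1a1, Eef1b2 and Eef2 of elongation, the poly(A)-binding protein gene Pabpc1 and the growth-related gene Tpt1. They were chosen by symbol from the 43548 genes of the deposited table, and each symbol had its own entry. RNA came from washed platelets of 4 TNFdARE mice and 4 Control littermates, without treatment, and was sequenced as bulk RNA. TNFdARE mice carry a Tnf allele whose transcript lacks its AU-rich element, have constitutively raised TNF-α, and were backcrossed to C57BL/6J. They also develop arthritis and bowel inflammation, so the allele and the chronic disease cannot be told apart in them. The mice were aged 8 to 12 weeks. Control mice 1 and 4 and TNFdARE mice 2 and 4 were female by label, and Control mice 2 and 3 and TNFdARE mice 1 and 3 were male. The labels contradict themselves on number, age, sex and tissue, since a blood-drawing note speaks of 3 mice per group and another note of older males whose humeri were taken. The comparison asked whether platelets made under lifelong excess of TNF-α carried a different amount of these mRNAs.

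Platelets have no nucleus and receive their mRNA from the megakaryocytes that shed them, so the translation factor mRNAs found in them are inherited rather than transcribed there. During initiation, eIF2 brings the initiator tRNA to the small ribosomal subunit, eIF1 guards the choice of start codon, and the helicase eIF4A with an eIF4G scaffold prepares the mRNA. During elongation, eEF1A delivers aminoacyl-tRNAs, eEF1B recharges eEF1A with GTP, and eEF2 moves the ribosome along the mRNA. In many cells the mRNAs of elongation factors, of PABPC1 and of TPT1 begin with a terminal oligopyrimidine tract and are translated under the control of mTOR together with those of ribosomal proteins.

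The values were read as FPKM, a unit inferred here. FPKM are sequenced fragments counted per length of transcript and per mapped fragment of a library. This puts genes of unlike length on a common scale. How many reads each mouse gave is unknown, so no counting interval could be given, and a value listed at 0 can be a failed estimate rather than an absent mRNA. A value above 0 need not stand for a read either. The smallest product of FPKM and kilobases of transcript above 0 was 2.33e-214 in Control mouse 4. The libraries differed widely. Between 818 genes (TNFdARE mouse 1) and 4917 genes (TNFdARE mouse 3) were above 0, 409 genes were above 0 in all 8 libraries, and the gene AY036118 alone held 33.7% to 67.7% of the summed FPKM, most in TNFdARE mouse 1. Of the platelet and megakaryocyte markers, 17 of 17 were above 0 in each Control mouse and 14 to 17 in the TNFdARE mice. Their summed FPKM was 1294 to 1790 in Control mice and 1204 to 1366 in TNFdARE mice. Erythroid markers summed to 803 to 2244 in Control mice and to 1150 to 14742 in TNFdARE mice, and globin transcripts were highest in TNFdARE mouse 1 (6802 FPKM) and mouse 4 (14556 FPKM). Of the markers of other blood cells, 6 of 10 for monocytes and macrophages (Cd14 and Ccr2 among them), 6 of 10 for B cells (Cd79a, Ms4a1), 8 of 13 for neutrophils (S100a8, Csf3r) and 8 of 10 for T and NK cells (Cd3e, Cd4) were listed at 0 in all 8 libraries. The monocyte and macrophage markers summed to 30.8 to 50.3 FPKM in Control mice, where 1 marker was above 0 in each mouse, and to 12.0 to 36.1 FPKM in TNFdARE mice. The B cell markers reached sums of 14.7 FPKM in Control mice and 13.7 FPKM in TNFdARE mice, the neutrophil markers 3.66 and 10.3 FPKM, and the T and NK cell markers 0 and 0.822 FPKM. The part of these cells in the values given here was not tested. Each library came from its own mouse, and p-values measure the spread between these mice. In bulk RNA, fewer cells of a type and less RNA per cell cannot be told apart.

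Several of the 10 genes have processed pseudogenes, intronless copies of their mRNA elsewhere in the genome, and some of these copies carried as much FPKM as the gene. The coding sequences below, from GENCODE M21 on GRCm38 (mm10), are shown because they set how far reads can separate a gene from its copy. Each stretch holds 90 bases, 5′ to 3′, and capitals mark the bases at which gene and copy differ. The stretch with the most differences was chosen for each pair, so others differ as much or less. Tpt1 lies at chr14:75845093-75848525 (+) and its processed pseudogene Tpt1-ps3 at chr6:99877816-99878334 (-). Their sequences were identical over all 516 coding bases, so 1 stretch, coding bases 1 to 90, stands for both.
Tpt1 and Tpt1-ps3: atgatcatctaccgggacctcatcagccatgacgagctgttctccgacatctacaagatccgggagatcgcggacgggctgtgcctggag

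Eif2s3x (chrX:94188707-94212862, -) and its processed pseudogene Gm2223 (chrX:33505661-33507010, +) were identical over the 1347 coding bases aligned. The stretch below starts at coding base 70 of Eif2s3x.
Eif2s3x and Gm2223: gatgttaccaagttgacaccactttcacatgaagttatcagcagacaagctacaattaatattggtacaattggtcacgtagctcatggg

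Eif4a1 (chr11:69666936-69672423, -) and Eif4a-ps4 (chr1:60703932-60705149, +) differed at 1 of 1218 coding bases, which ends the stretch shown (coding bases 445 to 534).
Eif4a1: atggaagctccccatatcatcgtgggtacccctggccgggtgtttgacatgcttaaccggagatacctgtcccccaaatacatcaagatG
Eif4a-ps4: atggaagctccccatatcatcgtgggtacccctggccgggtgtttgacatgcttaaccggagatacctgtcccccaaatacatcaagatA

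Pabpc1 (chr15:36595661-36609668, -) and Gm16580 (chr17:26269337-26270384, +) differed at 19 of 1038 aligned coding bases, 5 of them in the stretch from coding base 881 to 970 of Pabpc1.
Pabpc1: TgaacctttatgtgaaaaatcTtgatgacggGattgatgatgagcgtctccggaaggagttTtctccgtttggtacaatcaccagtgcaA
Gm16580: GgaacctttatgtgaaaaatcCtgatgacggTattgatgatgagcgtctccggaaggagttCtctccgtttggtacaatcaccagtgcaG

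Eef1a1 (chr9:78478449-78489151, -) and Gm13456 (chr2:40555752-40557116, +) differed at 18 of 1313 aligned coding bases, 4 of them in the stretch from coding base 863 to 952 of Eef1a1.
Eef1a1: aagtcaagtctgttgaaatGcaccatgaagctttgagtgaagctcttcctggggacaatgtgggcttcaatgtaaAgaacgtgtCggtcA
Gm13456: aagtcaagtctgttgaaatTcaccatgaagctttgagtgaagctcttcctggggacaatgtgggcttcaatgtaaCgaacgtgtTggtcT

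Counted over every stretch as long as a read (150 bases), all of the Tpt1 coding windows (100%) recurred letter for letter in an annotated copy on the same strand. The share was 94.6% for Eif2s3x, 86.0% for Eif4a1, 17.4% for Eif1, 13.4% for Eef1a1, 7.35% for Eif4a2 and 2.5% for Pabpc1. It was 0% for Eif4g2, Eef1b2 and Eef2, whose coding sequences had no such window, and untranslated regions were not counted. Copies were sought at 95% identity or more over at least 150 bases. How the study's software assigned reads that fit both a gene and its copy is not given in the sources used here. Tpt1, Eif2s3x and Eif4a1 are therefore uncertain as single genes. In windows of 50 bases, shorter than the reads, the share was 94.5% for Eif1, 72.6% for Eef1a1 and 30.7% for Pabpc1. The values of these genes are uncertain too, because copies of each were above 0 and the division of reads is not given. At this length it was 19.4% for Eif4a2, 16.8% for Eef1b2, 7.25% for Eef2 and 0% for Eif4g2.

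Of the 10 genes, 6 were above 0 in all 8 mice (Eif1, Eif4g2, Eef1a1, Eef2, Pabpc1 and Tpt1). Eif2s3x and Eef1b2 were above 0 in 6 mice, Eif4a2 in 5 and Eif4a1 in 1. A mean of at least 1 FPKM over the 8 mice was required for testing, which 8 genes reached and Eif4a1 and Eif2s3x did not. Among the 1534 genes tested, 26.1% were above 0 in all 8 mice. The summed FPKM of the 10 genes was 26.1, 49.4, 56.4 and 44.3 across Control mice 1 to 4 and 189, 51.3, 37.5 and 90.3 across TNFdARE mice 1 to 4. TNFdARE mice 1 and 4 stood highest and TNFdARE mouse 3 was below 3 of the Control mice, so the groups overlapped. As a share of all FPKM other than AY036118, the 10 genes made up 0.0783% to 0.154% in Control mice and 0.116% to 0.587% in TNFdARE mice.

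**Figure D1:**
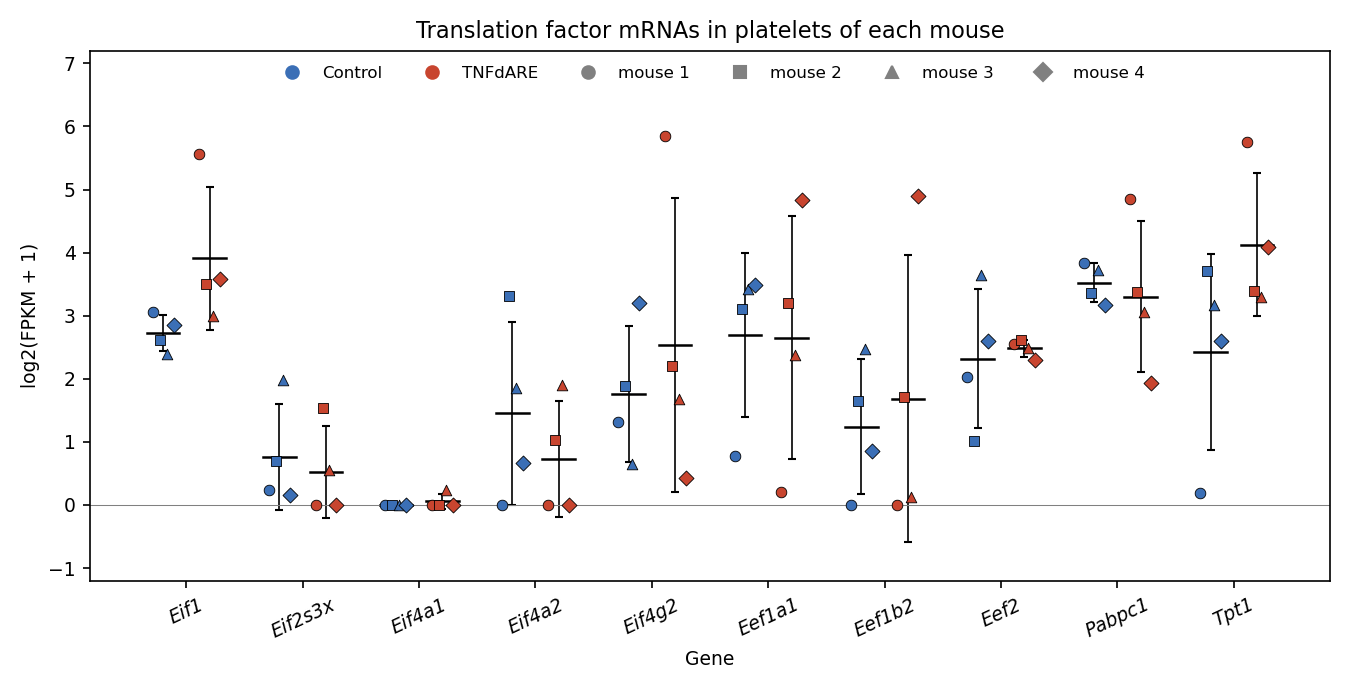
Level of each gene on a log2(FPKM + 1) scale in platelets of 4 Control and 4 TNFdARE mice. Each point is 1 mouse, with its number given by the marker shape, horizontal bars are group means and vertical bars are SD over 4 mice. The groups overlap for all 10 genes, and TNFdARE mouse 1 is highest for Eif1, Eif4g2, Pabpc1 and Tpt1.

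Eif1 encodes the small initiation factor that keeps the scanning ribosome from starting at a wrong codon. Its FPKM was 7.32, 5.10, 4.26 and 6.24 across Control mice 1 to 4 and 46.3, 10.4, 6.94 and 11.0 across TNFdARE mice 1 to 4. Of the 4 TNFdARE mice, 3 were above every Control mouse, and TNFdARE mouse 3 was just under Control mouse 1. The Control mean was 5.73 ± 1.34 FPKM (SD, n = 4) and the TNFdARE mean 18.7 ± 18.5 FPKM (SD, n = 4), with TNFdARE mouse 1 far above the other 3. On log2(FPKM + 1), a scale that compresses changes of genes with low values, the log2 fold change of TNFdARE over Control was 1.18 with a standard error of 0.65 (limma adjusted p = 0.86, unadjusted p = 0.0906; exact two-sided permutation p = 0.057). Leaving out TNFdARE mouse 1 gave 0.63 and leaving out TNFdARE mouse 3 gave 1.49, against 0.53 with sample weights and 1.3 after pseudogene copies were added to it. Of 16 similar genes annotated, 12 had a value here and 7 were above 0. The 6 copies added were the pseudogenes above 0, and a protein-coding gene above 0 was left out. In this sum Control mouse 3 (13.6 FPKM) was above TNFdARE mice 3 (12.0 FPKM) and 4 (11.0 FPKM), and the exact permutation p was 0.086.

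Eif4g2 encodes the scaffold DAP5, which resembles eIF4G but does not bind the cap-binding protein. Its FPKM was 1.48, 2.70, 0.576 and 8.16 across Control mice 1 to 4 and 56.5, 3.58, 2.19 and 0.340 across TNFdARE mice 1 to 4. TNFdARE mice held both the highest and the lowest value of the 8. Its log2 fold change was 0.77 with a standard error of 1.04 (limma adjusted p = 0.88; exact permutation p = 0.63) and turned to -0.33 without TNFdARE mouse 1. No copy of Eif4g2 was above 0 in the table.

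Eif4a2 and Eif4a1 encode closely related RNA helicases that unwind the leader of the mRNA. The FPKM of Eif4a2 was 0, 8.89, 2.62 and 0.579 across Control mice 1 to 4 and 0, 1.04, 2.72 and 0 across TNFdARE mice 1 to 4, with Control mouse 2 the highest. Its log2 fold change was -0.72 with a standard error of 0.85 (limma adjusted p = 0.87; exact permutation p = 0.54). It was -0.11 without Control mouse 2, -0.48 without TNFdARE mouse 1 or mouse 4, -1.21 without Control mouse 1 and -1.11 without TNFdARE mouse 3. With pseudocounts of 0.1 and 5 it was -1.42 and -0.335. Eif4a1 had a listed value of 0 in each Control mouse and in 3 TNFdARE mice, and of 0.178 FPKM in TNFdARE mouse 3. Its copy Eif4a-ps4, which differs from it at the single base shown above, was listed at 0.683 FPKM in TNFdARE mouse 2 and 0.759 FPKM in TNFdARE mouse 3 and at 0 elsewhere. Eif4a1 was thus close to undetected in these files, and the sum of the pair was above 0 only in TNFdARE mice 2 and 3 (exact permutation p = 0.43).

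Eif2s3x encodes the X-linked gamma subunit of eIF2, which holds GTP and the initiator tRNA. Its FPKM was 0.172, 0.619, 2.93 and 0.118 across Control mice 1 to 4 and 0, 1.91, 0.461 and 0 across TNFdARE mice 1 to 4. Its identical copy Gm2223 was listed at 0.115, 0, 3.25 and 0.0868 FPKM across Control mice 1 to 4 and at 0, 2.31, 0 and 0 across TNFdARE mice 1 to 4. Control mouse 3 and TNFdARE mouse 2 held the highest values of both entries. The difference of the group means of log2(FPKM + 1), TNFdARE minus Control, was -0.24 for Eif2s3x alone (exact permutation p = 0.57) and -0.31 for the sum (exact permutation p = 0.51).

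Among the elongation factors, Eef1a1 encodes the GTPase that brings charged tRNAs to the ribosome, an abundant protein of most cells. Its FPKM was 0.705, 7.63, 9.76 and 10.2 across Control mice 1 to 4 and 0.149, 8.17, 4.20 and 27.7 across TNFdARE mice 1 to 4. Each group held 1 mouse far below the rest, and TNFdARE mouse 4 stood highest. Its log2 fold change was -0.05 with a standard error of 0.96 (limma adjusted p = 1.00; exact permutation p = 1). It moved from 0.77 without TNFdARE mouse 1 to -0.77 without TNFdARE mouse 4.

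Eef1b2 encodes the exchange factor that reloads eEF1A with GTP. Its FPKM was 0, 2.13, 4.58 and 0.801 across Control mice 1 to 4 and 0, 2.28, 0.0972 and 28.6 across TNFdARE mice 1 to 4. TNFdARE mouse 4 was again the highest and mouse 1 of each group was listed at 0. Its log2 fold change was 0.44 with a standard error of 1.05 (limma adjusted p = 0.94; exact permutation p = 0.77), and -0.63 without TNFdARE mouse 4.

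Eef2 encodes the translocase of the ribosome. Without copies, it had the smallest spread of FPKM within TNFdARE mice of the 8 genes tested. Its FPKM was 3.09, 1.02, 11.5 and 5.04 across Control mice 1 to 4 and 4.86, 5.10, 4.59 and 3.92 across TNFdARE mice 1 to 4. The TNFdARE values, with an SD of 0.509 FPKM (n = 4), lay inside the Control range. Its copy Gm13050 was listed at 3.64 FPKM in TNFdARE mouse 4, and with this copy added the TNFdARE SD was 1.30 FPKM (n = 4). Its log2 fold change was 0.17 with a standard error of 0.68 (limma adjusted p = 0.97; exact permutation p = 0.69), and its sign turned without Control mouse 2 (-0.27).

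Pabpc1 encodes the cytoplasmic poly(A)-binding protein, which bridges the tail of an mRNA to the initiation scaffold. Its FPKM was 13.2, 9.25, 12.2 and 8.05 across Control mice 1 to 4 and 27.8, 9.41, 7.33 and 2.82 across TNFdARE mice 1 to 4. TNFdARE mouse 1 was above and TNFdARE mice 3 and 4 below every Control mouse. The log2 fold change was -0.22 with a standard error of 0.66 (limma adjusted p = 0.95; exact permutation p = 0.69), and 0.24 without TNFdARE mouse 4.

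Tpt1 encodes the translationally controlled tumor protein, a growth-related protein that binds calcium and whose mRNA is a standard example of translational control. Its FPKM was 0.138, 12.1, 8.01 and 5.09 across Control mice 1 to 4 and 52.9, 9.47, 8.78 and 15.9 across TNFdARE mice 1 to 4. The 4 TNFdARE mice were above the Control median and 2 of them, mice 1 and 4, above every Control mouse, while Control mouse 1 was far below the other 7. Tpt1 ranked 83 of the 818 genes above 0 in TNFdARE mouse 1 and 1417 of 1479 in Control mouse 1. The log2 fold change was 1.71 with a standard error of 0.83 (limma adjusted p = 0.86, unadjusted p = 0.0603; exact permutation p = 0.11). It was 1.17 without TNFdARE mouse 1, 0.97 without Control mouse 1, 1.10 with a pseudocount of 5 and 0.73 with sample weights.

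Among the genes tested, adding the copies moved the log2 fold change most for Tpt1 and Eef1a1. Tpt1-ps3 was listed at 22.1, 5.27, 7.84 and 13.1 FPKM across Control mice 1 to 4 and at 42.4, 17.2, 22.2 and 0 FPKM across TNFdARE mice 1 to 4. It was highest among Control mice in mouse 1, where Tpt1 was lowest, and at 0 in TNFdARE mouse 4, where the whole sum was listed under Tpt1. The sum of Tpt1 and its 3 copies was 22.3, 17.3, 16.9 and 18.2 FPKM across Control mice 1 to 4 and 96.0, 26.7, 31.5 and 15.9 FPKM across TNFdARE mice 1 to 4. The Control mean of this sum was 18.7 ± 2.44 FPKM (SD, n = 4), against 6.33 ± 5.02 FPKM (SD, n = 4) for Tpt1 alone, so the low value of Control mouse 1 was gone. TNFdARE mouse 4 changed from the second highest TNFdARE value of Tpt1 alone to the lowest of the 8 sums. The log2 fold change of the sum was 0.83 with a standard error of 0.57 (limma adjusted p = 0.86; exact permutation p = 0.14), less than that of Tpt1 alone.

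**Figure D2:**
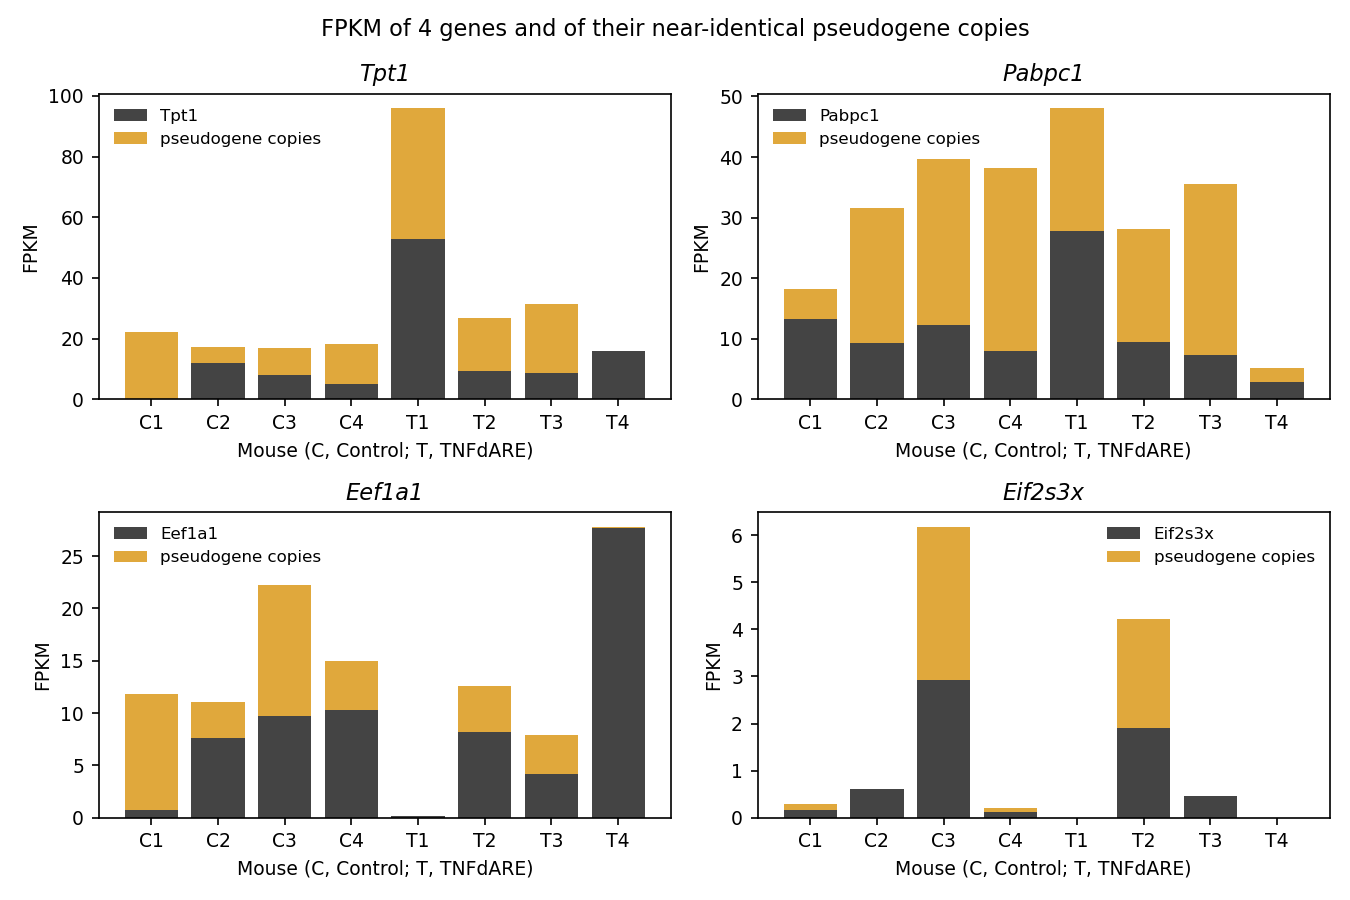
FPKM of Tpt1, Pabpc1, Eef1a1 and Eif2s3x (dark) and of their near-identical pseudogene copies (light), stacked for each of 4 Control (C1 to C4) and 4 TNFdARE mice (T1 to T4). In C1 nearly the whole Tpt1 sum of 22.3 FPKM is listed under copies, and in T4 the whole sum of 15.9 FPKM is listed under Tpt1.

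For Pabpc1, the copy Gm16580 was listed at 0.640, 21.6, 26.6 and 29.3 FPKM across Control mice 1 to 4 and at 20.3, 17.7, 27.4 and 2.36 FPKM across TNFdARE mice 1 to 4. Its mean over the 8 mice, 18.2 FPKM, was above that of Pabpc1, 11.3 FPKM. The sum of Pabpc1 with Gm16580 and the lesser copy Gm8276 was 18.3 to 39.6 FPKM in Control mice and 5.18 to 48.1 FPKM in TNFdARE mice, and its log2 fold change was -0.41 (limma adjusted p = 0.89; exact permutation p = 0.74). For Eef1a1, Gm13456 was listed at 9.08, 3.13, 8.01 and 4.11 FPKM across Control mice 1 to 4 and at 0, 4.05, 2.35 and 0 FPKM across TNFdARE mice 1 to 4. With the 5 copies that have a value here added, of 14 annotated, Eef1a1 was no longer low in Control mouse 1 (11.8 against 0.705 FPKM) but stayed at 0.149 FPKM in TNFdARE mouse 1. The Eef1a1 sum gave a log2 fold change of -0.96 with a standard error of 0.85 (limma adjusted p = 0.86; exact permutation p = 0.49), larger in size than that of Eef1a1 alone.

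Across the 8 genes tested, 5 had a log2 fold change above 0 and 3 below 0, with a median of 0.30. This median was 0.05 without Control mouse 1, 0.50 without Control mouse 3, 0.56 without TNFdARE mouse 3, 0.11 with copies summed or without a filter on low values, 0.59 with quantile normalization, 0.77 where a mean of 5 FPKM was required and -0.11 with sample weights. Over all 1534 genes tested, 37% were above 0 and the median was -0.30, or -0.0114 with sample weights and -0.06 with quantile normalization. None of the 8 passed limma at an adjusted p of 0.05, where the background was 0% of all genes, and none passed at an unadjusted p of 0.05, where the background was 4.5% (1.76% higher and 2.74% lower). Under quantile normalization, Eif1 and Tpt1 passed an unadjusted p of 0.05 in limma, with log2 fold changes of 1.54 (unadjusted p = 0.0356, adjusted p = 0.90) and 1.65 (unadjusted p = 0.0494, adjusted p = 0.90). Tpt1 also did so in limma without Control mouse 2 (2.14, unadjusted p = 0.0439, adjusted p = 0.85) and with sex as a covariate (unadjusted p = 0.0449, adjusted p = 0.885). Over all genes, 59 passed this threshold in limma with quantile normalization, 48 without Control mouse 2 and 61 with sex as a covariate. No exact permutation p of the 10 genes was under 0.05, and the smallest that 4 against 4 mice can give is 0.029. The values of the 2 groups were without overlap for none of the 10 genes, and for 3.32% of all genes tested. A p that misses the threshold does not show that the levels were equal, since the standard errors ran from 0.65 to 1.05 on the log2 scale.

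**Figure D3:**
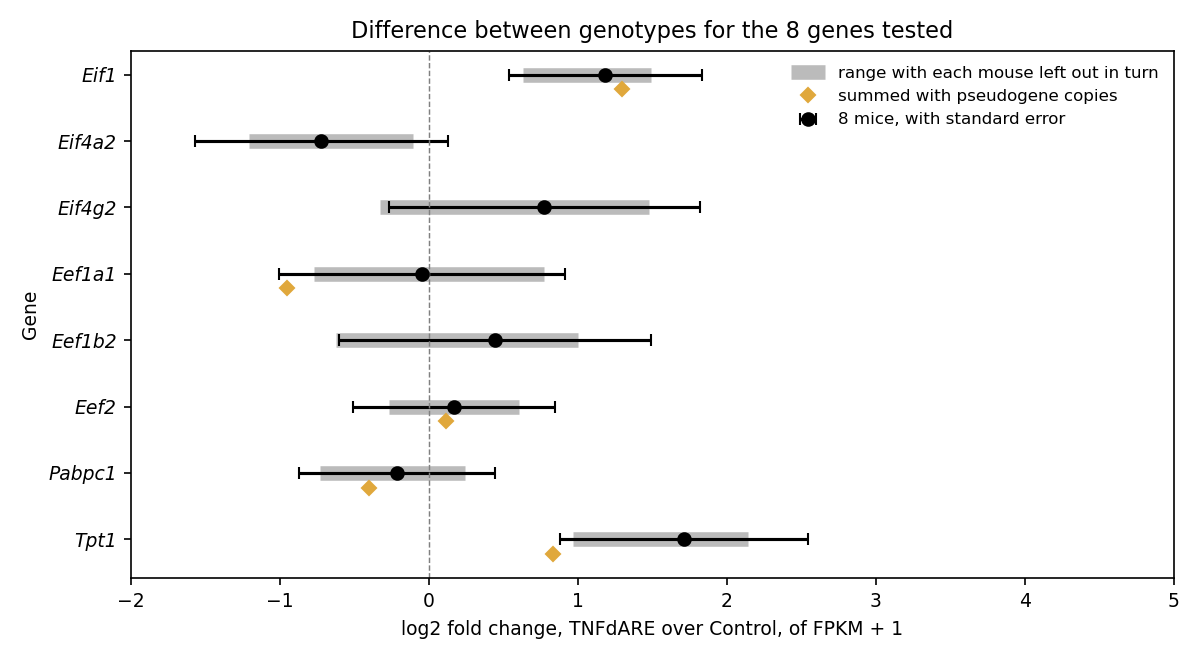
Log2 fold change of FPKM + 1, TNFdARE over Control, for the 8 genes tested. Points with bars are the estimate from 8 mice with its standard error, grey bands the range with each mouse left out in turn, and diamonds the estimate after pseudogene copies were added. Only the bands of Eif1, Eif4a2 and Tpt1 stay on one side of 0, and no gene passes an adjusted p of 0.05.

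The genes differed in how much mice of one genotype varied. The within-group SD of log2(FPKM + 1) was 0.78 for Eef2, 0.83 for Eif1 and 0.88 for Pabpc1, below the median of 1.13 over all genes tested. It was 1.21 for Eif4a2, 1.36 for Tpt1, 1.65 for Eef1a1, 1.78 for Eef1b2 and 1.82 for Eif4g2. TNFdARE mouse 1 held the highest of the 8 values for 4 genes (Eif1, Eif4g2, Pabpc1 and Tpt1) and TNFdARE mouse 4 for 2 (Eef1a1 and Eef1b2), where 16.3% and 14.5% of all genes tested were highest in these mice. Both mice also had the fewest genes above 0 (818 and 1225) and the most globin FPKM, and the part of these features in the values was not tested. With both left out, a check chosen after the values were seen, 6 of the 8 genes had a log2 fold change above 0 and the median was 0.13, with 0.52 for Eif1 and 0.92 for Tpt1, and none passed an unadjusted p of 0.05 in limma.

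The genotype difference was also compared between females and males, and TNFdARE mouse 4, highest for Eef1a1 and Eef1b2, was a female. In a limma model with sex, the genotype difference in males minus that in females was -3.87 for Eef1a1 (standard error 1.68, unadjusted p = 0.0370, adjusted p = 0.92) and -4.87 for Eef1b2 (standard error 1.74, unadjusted p = 0.0140, adjusted p = 0.92). For Eef1a1, the log2 difference of TNFdARE from Control was 1.89 in females and -1.98 in males. For Eef1b2 it was 2.88 in females and -2.0 in males. These 2 of the 8 genes passed at an unadjusted p of 0.05, against 3.52% of all genes tested, and neither passed after adjustment. Only 2 mice stood behind each sex and genotype. The comparison between sexes was made without copies. Control mouse 1, a female, had 0.705 FPKM of Eef1a1 alone and 11.8 FPKM with its copies. Without TNFdARE mouse 1, the genotype difference in males minus that in females was -2.78 for Eef1a1 and -4.80 for Eef1b2. Without TNFdARE mouse 4 it was -3.045 for Eef1a1 and -3.28 for Eef1b2. In both cases a lone mouse stood for its sex and genotype, and the fit took it to vary like the others.

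The wider machinery was followed in a list of 86 genes of initiation, elongation, termination and recycling, poly(A) binding and translational control, which includes the 10. Of its 87 entries, 42 were listed at 0 in all 8 mice, among them the termination and recycling genes Etf1, Gspt1, Gspt2 and Abce1. Only 15 entries reached a mean of 1 FPKM, of which 9 had a log2 fold change above 0 and 6 below, with a median of 0.24, and none passed limma at an unadjusted or adjusted p of 0.05. The median was 0.03 without Control mouse 1, 0.41 without Control mouse 2, 0.14 without TNFdARE mouse 1, 0.13 with a pseudocount of 0.1, 0.15 with sample weights, 0.49 with quantile normalization, 0.77 where a mean of 5 FPKM was required and -0.05 without a filter on low values. The 7 tested genes other than the 10 split 4 to 3. Eif4g1, the main eIF4G scaffold, was listed at 0, 2.25, 1.63 and 5.23 FPKM across Control mice 1 to 4 and at 78.0, 7.40, 2.73 and 0 FPKM across TNFdARE mice 1 to 4, highest in TNFdARE mouse 1 like Eif4g2 (log2 fold change 1.39, standard error 1.13).

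Eif3h, a subunit of the large eIF3 complex, was listed at 1.91, 5.78, 1.67 and 5.22 FPKM across Control mice 1 to 4 and at 10.02, 6.67, 4.51 and 9.84 FPKM across TNFdARE mice 1 to 4. Here 3 TNFdARE mice were above every Control mouse (log2 fold change 0.99, standard error 0.62, exact permutation p = 0.086). Paip2, which holds the poly(A)-binding protein off the mRNA, lay between 4.46 and 14.3 FPKM across Control mice and between 6.28 and 15.2 FPKM across TNFdARE mice (log2 fold change 0.41). Eif4ebp1, the repressor that sequesters the cap-binding protein eIF4E, lay between 2.09 and 17.9 FPKM across Control mice and between 0 and 9.44 FPKM across TNFdARE mice (log2 fold change -0.69). Eif5, which triggers GTP hydrolysis on eIF2, gave 0.24, and Eif2b2, a subunit of the exchange factor of eIF2, was above 0 in Control mouse 3 alone (28.8 FPKM).

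**Figure D4:**
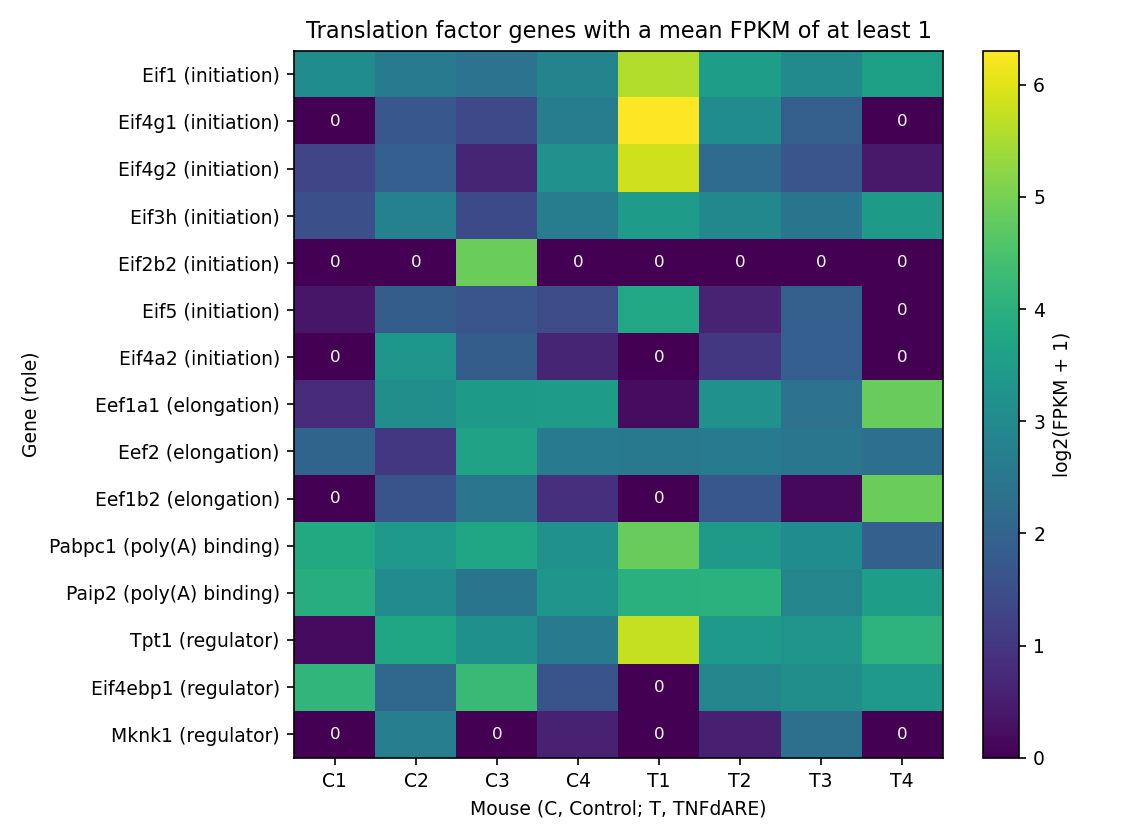
Level of the 15 translation genes with a mean of at least 1 FPKM, as log2(FPKM + 1) by colour, in 4 Control (C1 to C4) and 4 TNFdARE mice (T1 to T4), with each gene's role in parentheses and 0 written where a gene is listed at 0. Eif1, Eif4g2, Eif3h, Eef1a1, Eef2, Pabpc1, Paip2 and Tpt1 are above 0 in every mouse, and Eif4g1 and Eif4g2 are brightest in T1.

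The cytosolic ribosomal proteins, which share translational control with several of the 10 genes, were set beside them. The table held 81 such genes, of which 41 had a value above 0 in some mouse and 13 reached a mean of 1 FPKM. Their log2 fold changes were above 0 for 4 and below 0 for 9, with a median of -0.26. Over all 1534 genes tested, 37% were above 0 and the median was -0.30. None of the 13 passed limma at an unadjusted or adjusted p of 0.05. Copies of the ribosomal protein genes were not sought.

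The genes whose pattern over the 8 mice was most like that of Tpt1 were sought among 583 tested genes with a mean of at least 5 FPKM, as the mean absolute difference of centred log2(FPKM + 1). Copies were not added, so the low Tpt1 value of Control mouse 1 was part of the pattern. The mean absolute deviation of the gene itself was 0.96 for Tpt1 and 0.67 for Eif1. The genes most like Tpt1 were Tmem123 (0.47), Arf5 (0.51) and Cd151 (0.52). Of these, Tmem123 ran from 1.09 FPKM in Control mouse 1 to 45.3 FPKM in TNFdARE mouse 1. For Eif1 they were Ptpn12 (0.31), Tgfb1 (0.41) and Gm8730 (0.41), and Ptpn12 ran from 1.41 FPKM in Control mouse 1 to 31.8 FPKM in TNFdARE mouse 1.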

How the data were processed

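RNA from washed platelets of 4 TNFdARE and 4 Control mice was sequenced by the authors as 150 bp reads. The deposited table of the authors holds a value for each gene in each mouse, read here as FPKM because the submitters' processing notes name Cufflinks with mm10 and the columns sum to unlike totals. The unit is thus inferred, and depth is unknown because low values showed no read-sized step. Columns were matched to mice by library name, and 0 were left unmapped. Genes with a mean of at least 1 FPKM entered limma 3.58.1 (R 4.3.3) as log2(FPKM + 1), with a trend and Benjamini-Hochberg adjustment over all 1534 genes. The model was also run on simulated data with normal noise. Those data lack the zeros and the skew of the real values, so the run cannot show how the model performs on them. Single genes were also compared by an exact two-sided permutation test. Same-numbered mice were not treated as pairs. Copies were found with BLAST 2.17.0 on GENCODE M21 transcripts (GRCm38), which hold 42384 of the identifiers. Named were the 10 genes, the 6 other list genes with the highest means (no other list gene had an unadjusted p under 0.05), at most 2 copies per gene, and the 3 genes most like Tpt1 and Eif1. The termination and recycling genes lie outside this rule and were named after their values were seen. The genes and lists were chosen with earlier results of these data known. Alternatives were pseudocounts of 0.1 and 5, other filters, quantile normalization, median-of-ratios scaling, rescaling without AY036118, limma without a trend or with sample weights, sex as a covariate, a replicate block, summing copies, and leaving out each mouse.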

Additional observations from a re-analysis of the deposited data

Results flagged for a closer look

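Within groups of 4 mice, a mouse was called far from the others when its gap to the nearest, divided by the range of the group, passed the 95% limit of Dixon's test. This held in 7 of 32 groups examined, with gene and gene-plus-copy groups reusing the same values. Dixon's limit passes about 1 in 20 groups by chance (1.6 of 32) when values are normal, but FPKM are skewed, and over all 1534 genes tested 23.8% of the groups passed, or 14.7% of the groups with more than 1 mouse above 0. For the 8 translation factor genes tested, without copies, 4 of 16 groups passed (25%), each of the 16 with more than 1 mouse above 0, and no test of this share was made. TNFdARE mouse 1 stood far above the other TNFdARE mice for Eif1 (0.897 of the range), Eif4g2 (0.942) and Tpt1 (0.838). TNFdARE mouse 4 stood far above for Eef1b2 (0.921). For Eif2s3x summed with its copy Gm2223, Control mouse 3 (0.931) and TNFdARE mouse 2 (0.891) stood far above their groups. For Eif4a1, TNFdARE mouse 3 was the only mouse of its group above 0 (1.000), a ratio that any lone value above 0 gives. The genotype difference differed between the sexes at an unadjusted p under 0.05 in limma for Eef1a1 (males minus females, -3.87) and for Eef1b2 (-4.87), and for neither after adjustment.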

How the results depend on the processing

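No gene passed an adjusted p of 0.05 in limma under any of 21 alternatives, 1 of them (TNFdARE mice 1 and 4 both left out) added after seeing the data, and the smallest adjusted p of any of the 8 genes was 0.611. Genes at an unadjusted p of 0.05 numbered 69, against 36 with a mean of at least 5 FPKM (fewer genes tested) and 111 with sample weights. The share of these that were higher in TNFdARE mice was 39.1%, against 57.6% with quantile normalization, 66.7% with weights, 79.7% with TNFdARE mice 1 and 4 both left out, 16.3% without Control mouse 1 and 56.5% without TNFdARE mouse 1 or mouse 4. The median of the 8 translation factor genes ranged from 0.05 to 0.56 with each mouse left out and was -0.11 with sample weights, and that of the wider list ranged from 0.03 to 0.41 and was -0.05 without a filter. Of the 8 translation factor genes, 5 were higher, against 3 where a mean of 5 FPKM was required (fewer genes tested). At an unadjusted p the count was 0, against 2 with quantile normalization (59 of all genes), 1 with sex as a covariate (61 of all genes), and 0 to 1 with each mouse left out (46 to 75 of all genes). For the wider list the counts were the same, 2, 1 and 0 to 1, and 22 of its genes were higher without a filter (more genes tested). The genotype by sex count of 2 became 0 with a mean of at least 5 FPKM, and was 0 to 1 without TNFdARE mouse 1 or 4, which was added after seeing the data. Signs turned with sample weights for Eif4a2 (0.0253), Eif4g2 (-0.25) and Eef1b2 (-0.42). For Eef1a1 they turned with median-of-ratios scaling (0.0212), a pseudocount of 5 (0.0823) and quantile normalization (0.37). With TNFdARE mice 1 and 4 both left out, the values were 0.0071 for Eif4a2, 0.0874 for Eef1a1 and -0.32 for Eef1b2. Leaving out each mouse gave 0.63 to 1.49 for Eif1, 0.97 to 2.14 for Tpt1, -1.21 to -0.11 for Eif4a2, -0.33 to 1.48 for Eif4g2, -0.77 to 0.77 for Eef1a1, -0.63 to 1.00 for Eef1b2, -0.27 to 0.61 for Eef2 and -0.73 to 0.24 for Pabpc1. Apart from the numbers of genes or mice, the cause was not tested. The median over all genes tested was -0.30, -0.06 with quantile normalization and -0.0114 with sample weights. Deviations of same-numbered mice correlated at -0.07 to 0.06, and those of differently numbered mice at -0.108 to 0.0967. With values this close to each other, the check cannot decide whether mice shared a litter or a cage. Library names also share a number between Control mouse 1 and TNFdARE mouse 1 (correlation 0.06) and between Control mouse 4 and TNFdARE mouse 3 (0.04). What that number stands for is not stated, and no model used it. With the replicate block the 8 genes had a median of 0.30, with 5 higher and 0 at an unadjusted p of 0.05, and 64 of all genes passed that threshold. Unknown depth and the many values at 0 limit the precision of low genes.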
